A study of Mus musculus with 10 samples.

Results

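Solute carriers are the membrane proteins, numbered in families, that move amino acids, sugars, metals, ions, vitamins and metabolites across the plasma membrane and the membranes of organelles. The genes described here are all protein-coding genes of the deposited matrix whose symbol has the form Slc, family number, a, member number. This rule selected 205 of 15899 genes (12288 of them protein-coding) in 41 families. Of the 205 genes, 201 encode carriers, and 4 carry such a symbol without being carriers themselves, among them Slc9a3r1, the scaffold protein NHERF1. The rule used names only and no measured value.

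RNA that came down with MEX3A, an RNA-binding protein, was measured by RIP-seq (RNA immunoprecipitation and sequencing) in neural stem cells of the adult mouse brain, expanded as neurospheres with EGF and FGF from the subependymal zone of animals aged 10 weeks. In the FLAG group the cells came from homozygous Mex3aFLAG/FLAG knock-in mice, in which a 3X-FLAG tag had been added by CRISPR/Cas9 to the C terminus of the endogenous protein. In the WT group the cells were Mex3a+/+ and carried no tag, so that the same anti-FLAG antibody gave the nonspecific background. Each group was processed after formaldehyde crosslinking (2 libraries of each genotype) and without it, in native conditions (3 libraries of each). The methods call the replicates biological without saying whether they came from separate animals, so p-values measure the spread between these libraries. All FLAG cells carried the tag and all cells were grown in the same factors, and no input RNA was analysed here. A FLAG over WT difference therefore mixes what was bound with how much of the RNA the cells held, and in bulk samples fewer cells of a type and less RNA per cell cannot be told apart.

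Neural stem cells and the astrocytes they resemble rely on several carrier families. Slc1a2 and Slc1a3 clear glutamate, the Slc30 genes export zinc from the cytosol or load it into vesicles, the Slc39 genes bring zinc into the cytosol, and Slc16a1 moves lactate and pyruvate. Most Slc25 genes encode carriers of the inner mitochondrial membrane, which exchange ADP for ATP and let phosphate, citrate and amino acids pass. MEX3A belongs to the MEX-3 family, whose members bind short bipartite motifs in 3′ untranslated regions (3′UTRs) through paired KH domains.

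The MEX-3 recognition element was searched for on the sense strand of the longest annotated 3′UTR, as a first part (AGAG or ATAG or GGAG or GTAG or TGAG or TTAG) and, after 0 to 8 bases of any kind, a last part (TATA or TCTA or TTTA). The sites printed here are the matches nearest the stop codon in the genes on which the comparisons below turn, 2 for the zinc transporters of the study's own list of bound RNAs and 1 for each of the others, with the parts of the motif in capitals and 5 flanking bases on each side. They were read from the RefSeq GRCm38.p6 genome, 5′ to 3′ on the strand of the gene, and all lie in 3′UTR exons of GENCODE M21.
Slc30a1, first site: atctgTTAGgatTATAattgc
Slc30a1, second site: gctgcTGAGgaatagTCTAgtaaa
Slc30a4, first site: cttccAGAGtgctgTTTAcagaa
Slc30a4, second site: tccagATAGtactgggtTTTAaatct
Slc39a1: ttctcTTAGaTATAgggat
Slc35a5: aaagcATAGtattcTTTAcatgt
Slc1a2: tatgcTGAGtagatgtaTCTAggcaa
Slc5a3: ggtcaTTAGcacgagTCTAcggat
Slc25a1: gtcccATAGttctgTATAtccca
Slc41a1: ttgcaTTAGcTTTAgcgac
Slc16a1: taatcTTAGctTTTAacagt
Slc24a4: gcctcAGAGTCTAgtctt
Slc37a2: tgaacATAGgtgccaagTTTAgcaag

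The motif spans of these sites have the following GRCm38 positions. The Slc30a1 sites are at chr1:191910154-191910164 and chr1:191910326-191910339 on the plus strand. The Slc30a4 sites are at chr2:122684990-122685002 and chr2:122684613-122684628 on the minus strand. On the plus strand lie those of Slc39a1 (chr3:90252470-90252478), Slc1a2 (chr2:102783609-102783624), Slc5a3 (chr16:92079718-92079731), Slc41a1 (chr1:131847060-131847068), Slc16a1 (chr3:104655984-104655993) and Slc24a4 (chr12:102266205-102266212). On the minus strand lie those of Slc35a5 (chr16:45142039-45142051), Slc25a1 (chr16:17925668-17925680) and Slc37a2 (chr9:37230799-37230814). A match is a run of letters and was not tested for binding. Such matches were common. A 3′UTR was annotated for 204 solute carrier genes, and 166 of them (81.4%) held at least 1 match, against 9348 of 12108 protein-coding genes of the matrix with a 3′UTR (77.2%). Their 3′UTRs were longer (median 1588.5 nt against 1261 nt), and per kb of 3′UTR the solute carrier genes had 2.57 matches and the protein-coding genes 2.80.

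The deposited values are normalised log2 values with nearly the same distribution in all 10 libraries, so the number of reads per library is unknown, and no interval for counting error can be given. A gene was called at a limma adjusted p-value under 0.05, after Benjamini-Hochberg correction across the 15899 genes, with a log2 fold change beyond 0.58 in either direction. Pairs of libraries of one group had correlations of 0.911 to 0.978 across genes, which are not independent replicates. FLAG native replicates 1 and 3 had 329 and 178 genes tied at their lowest value, against 1 to 3 genes in each of the other libraries, and at most 2 solute carrier genes in any library. Of the native FLAG libraries, replicate 2 lay closest to WT. The middle 50% of solute carrier genes (the quartiles) stood in it between -0.13 and 0.27 from the WT native mean, against -0.53 to 0.63 in FLAG native replicate 1 and -0.45 to 0.53 in FLAG native replicate 3. WT crosslinked replicate 2 resembled the FLAG crosslinked libraries more than its own group. The correlation of its deviations from the 10-library mean, across genes, was 0.57 with FLAG crosslinked replicate 1 and 0.39 with FLAG crosslinked replicate 2, against 0.20 with WT crosslinked replicate 1. These 2 libraries were singled out after the values were seen, because each lay near the other genotype. Leaving either out widens the FLAG over WT differences by construction, so the values given without them describe how far a result depends on that library and support no gene's direction.

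The cultures carried 8 of 9 neural stem and progenitor markers, and Gfap was not in the matrix. Of 4 neuronal markers only Rbfox3 was present. Its linear value was 7.5 to 13.3 in FLAG and 21.4 to 22.1 in WT after crosslinking, and 8.1 to 10.2 in FLAG and 22 to 27.5 in WT in native conditions, so this neuronal gene moved with the genotype. Its part in the results below was not tested. Of the oligodendrocyte list only 1 of 4 genes was in the matrix, Mbp, Mog and Mag being absent, and its linear value was 3.0 to 3.1 in FLAG and 3.6 to 3.7 in WT after crosslinking and 1.7 to 3.9 in native conditions. Of the microglial list 3 of 5 genes were present, with a summed linear value of 28.8 to 36.6. The endothelial (2 of 4 genes) and ependymal (1 of 4) lists had low sums, with the defining genes Cldn5, Cdh5, Tmem212, Rsph1 and Ccdc153 absent. After crosslinking the endothelial sum was 1.2 to 1.4 in FLAG and 2.2 to 2.5 in WT, and the ependymal sum 1.5 to 1.6 in FLAG and 1.0 to 1.2 in WT, so these too moved with the genotype there. In native conditions the groups overlapped, with endothelial sums of 1.3 to 3.1 in FLAG and 2.3 to 2.6 in WT and ependymal sums of 1.4 to 7.1 and 1.7 to 3.4. The part of these lists in the results was not tested either.

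The first question was which solute carrier RNAs were more abundant in the FLAG than in the WT pull-down. Over all 10 libraries, in a fit that also held the protocol, 1 solute carrier gene was called higher (0.488% of the 205), against a background of 0.264% of all genes (42 of 15899), and none was called lower, against 0.233% (37). The called gene was Slc35a5. This fit treats the crosslinked and native libraries of one genotype and number as independent, and with them as a random block Slc35a5 was not called. At an unadjusted p under 0.05 with the same fold, 18 solute carrier genes (8.78%) were higher, against 7.24% of all genes, and 11 (5.37%) were lower, against 5.28%. The solute carrier genes stood close to the background in both directions. Their median log2 fold change was 0.04, against 0.01 in protein-coding genes and -0.03 in all genes of the matrix. Values ran from -1.83 to 1.95, with 22 genes above 0.58 (10.7%) and 14 below -0.58 (6.83%), against 10.3% and 9.02% of all genes and 10.1% and 5.63% of protein-coding genes. A positive fold change was found in 52.7% of the solute carrier genes, 50.7% of protein-coding genes and 46.8% of all genes, and the counts by class and list below stand beside these shares.

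Within the protocols no solute carrier gene was called. In the crosslinked libraries 0 genes of the matrix were called in either direction (0.0% higher and 0.0% lower). At an unadjusted p under 0.05 and the same fold, 7 solute carrier genes (3.41%) were higher there, against 2.78% of all genes, and 2 (0.976%) were lower, against 0.987%. In the native libraries the called background was 0.0% higher and 0.107% lower (17 genes), with no solute carrier gene among them. At an unadjusted p under 0.05 and the same fold, 23 solute carrier genes (11.2%) were higher, against 7.77%, and 13 (6.34%) were lower, against 7.06%. The median log2 fold change of the 205 genes was 0.01 after crosslinking and 0.11 in native conditions, where protein-coding genes had 0.01 and all genes -0.04. The native median fell to 0.0103 without WT native replicate 1 (protein-coding genes -0.0219) and to 0.0273 with a pseudocount of 8 (0.0064).

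The calls in native conditions depended on which libraries were kept. Without FLAG native replicate 2, 18 solute carrier genes were called higher and 21 lower in native conditions (8.78% and 10.2%), but so were 9.12% and 10.8% of all genes. The FLAG native libraries that then remain, replicates 1 and 3, are those with the many tied lowest values, and they had array weights (limma's estimate of a library's precision) of 0.124 and 0.159, against 1.27 for replicate 2. Over all libraries, leaving it out gave 10 solute carrier genes called higher (4.88%, background 3.25%) and 3 lower (1.46%, background 1.17%), where all genes went from 42 and 37 calls to 516 and 186. The 10 higher genes were Slc1a2, Slc5a3, Slc16a1, Slc25a4, Slc25a5, Slc25a15, Slc30a1, Slc35a5, Slc39a1 and Slc41a1, and the 3 lower ones were Slc24a4, Slc25a47 and Slc37a2. In native conditions the genes described below that were called higher without it were Slc30a1 (log2 fold change 2.66), Slc16a1 (1.61), Slc39a1 (1.58), Slc38a2 (1.54), Slc25a3 (1.4), Slc25a4 (1.39), Slc25a5 (1.32), Slc25a39 (1.23), Slc1a2 (1.15), Slc39a10 (1.13), Slc38a1 (1.06), Slc5a3 (1.03), Slc41a1 (0.79) and Slc35a5 (0.78). Those called lower were Slc24a4 (-2.49), Slc25a29 (-1.34), Slc37a2 (-1.20), Slc25a47 (-1.12), Slc4a4 (-1.06) and Slc2a1 (-0.64). Without WT crosslinked replicate 2, 4 were called higher over all libraries (1.95%, background 1.14%) and 3 lower (1.46%, background 1.38%). The higher ones were Slc1a2, Slc4a10, Slc35a5 and Slc39a1, and the lower ones included Slc1a3 and Slc24a4.

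A description that needs no model is whether every FLAG library lay beyond every WT library of its protocol. This held in both protocols on the higher side for 15 solute carrier genes (7.32%), against 4.84% of all genes (770), and on the lower side for 6 (2.93%), against 4.47% (710). The higher ones were the zinc transporter genes Slc30a4, Slc39a1 and Slc39a9, the mitochondrial carrier genes Slc25a1, Slc25a15 and Slc25a39, the amino acid and peptide transporter genes Slc1a2, Slc7a5, Slc15a3 and Slc36a1, and Slc5a3, Slc33a1, Slc35a5, Slc41a1 and Slc46a1. The lower ones were Slc4a1ap, Slc5a10, Slc24a4, Slc25a29, Slc25a47 and Slc37a2. No gene lay higher in one protocol and lower in the other.

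**Figure D1:**
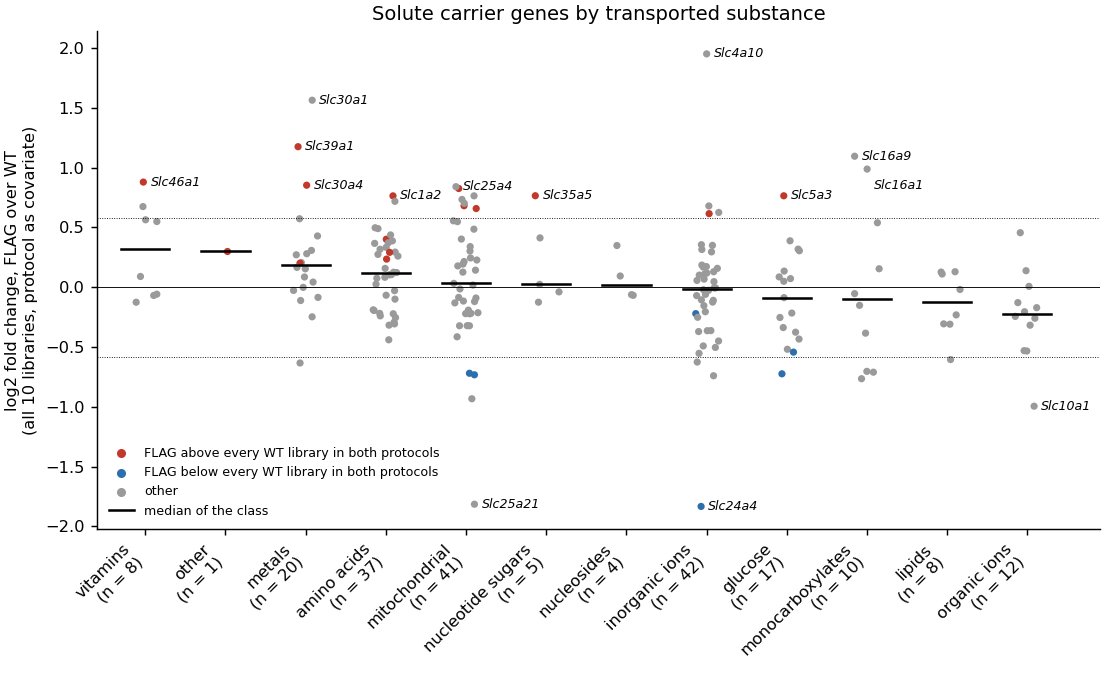
Each point is 1 of the 205 solute carrier genes, grouped along the x axis by what its family transports, with its log2 fold change of FLAG over WT across all 10 libraries on the y axis. Black bars are class medians, which run from 0.32 for the vitamin carriers to -0.23 for the organic ion carriers, and dotted lines mark 0.58 and -0.58. Red points mark the 15 genes with every FLAG library above every WT library in both protocols, and blue points the 6 genes with every FLAG library below.

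By transported substance the class medians over all libraries differed little against the width of the classes, as the plot of fold changes by class shows. The median log2 fold change was 0.32 for 8 vitamin carriers, 0.18 for 20 metal carriers, 0.12 for the 37 genes of the amino acid and peptide families and 0.03 for the 41 genes of family 25. It was 0.02 for the 5 nucleotide sugar and the 4 nucleoside carriers, and -0.01 for the 42 genes of the inorganic ion families. The 4 genes that encode no carrier are counted with the families whose names they bear, 1 (Slc7a6os) with the amino acids and the others with the inorganic ions. The sugar families 2, 5, 37, 45 and 50 (17 genes) had -0.09, the monocarboxylate carriers (10) -0.10, the lipid carriers (8) -0.13 and the carriers of organic ions (12) -0.23. Among the amino acid families 2 genes were above 0.58 and 0 below -0.58, and 24 of 37 had a positive fold change. These are descriptions of the classes, and no class was tested against the others.

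Zinc transporters held the largest positive fold changes among the metal carriers. Slc30a1 encodes ZnT1, the zinc exporter of the plasma membrane, and lies at chr1:191906767-191913247. Its normalised log2 values were 1.57 and 1.79 in FLAG against 0.74 and 0.71 in WT after crosslinking. In native conditions they were 3.34, 1.66 and 4.13 in FLAG and 0.87, 1.96 and 0.39 in WT. The crosslinked groups did not overlap, whereas in native conditions FLAG replicate 2 fell below WT replicate 2. It had a log2 fold change of 0.96 after crosslinking and of 1.97 in native conditions. Over all libraries it was 1.56 ± 0.46 (SE), with a limma adjusted p of 0.127. Without FLAG native replicate 2 it was 1.89, with a limma adjusted p of 0.0376. Of the exon length of Slc30a1, 8.92% overlaps another gene, and whether counting used the strand is not given in the sources used here.

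Slc30a4 encodes ZnT4, which loads zinc into vesicles, and lies at chr2:122681233-122702663. Its values were 3.33 and 4.20 in FLAG against 3.07 and 3.05 in WT after crosslinking, and 3.38, 4.05 and 4.22 against 2.80, 2.96 and 3.02 in native conditions. All 5 FLAG libraries lay above all 5 WT libraries. Over all libraries it had a log2 fold change of 0.85 ± 0.20, and the limma adjusted p of 0.0891 missed the threshold. Slc30a1 and Slc30a4 both stand on the study's list of bound RNAs, which was chosen on these libraries, so their direction is not independent evidence. Each had 15 matches of the recognition element, in 3′UTRs of 3492 and 3946 nt, of which the 2 nearest the stop codon are printed above.

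Slc39a1 encodes ZIP1, a zinc importer. Its values were 2.08 and 2.43 in FLAG against 1.18 and 1.35 in WT after crosslinking, and 3.83, 2.80 and 3.47 against 1.91, 2.65 and 1.65 in native conditions. The groups did not overlap in either protocol, and the nearest pair in native conditions was FLAG replicate 2 and WT replicate 2. This gave log2 fold changes of 0.99 after crosslinking, 1.30 in native conditions and 1.17 ± 0.24 over all libraries (limma adjusted p = 0.069). Without FLAG native replicate 2 it was 1.31 over all libraries (limma adjusted p = 0.0224). Of all 75-nt windows of its transcripts, 17.9% also occur in another gene, here a pseudogene of Slc39a1, so reads may have been shared.

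The other metal carriers had values on both sides of 0. Slc39a10, a plasma membrane importer, had 4.40 and 4.48 in FLAG against 4.16 and 4.23 in WT after crosslinking, and 5.13, 4.29 and 5.49 against 4.25, 4.34 and 3.95 in native conditions, where FLAG replicate 2 lay within the WT range. Its log2 fold change across the 10 libraries was 0.57 ± 0.22, with a limma adjusted p of 0.186. Slc39a12, an importer of the brain singled out after its values were seen, had a fold change of the opposite sign, -0.63 (limma adjusted p = 0.149). Slc11a2, the divalent metal transporter that imports iron, stood at -0.03, and Slc31a1, the copper importer, at 0.27. Of the 20 metal carriers 14 had a positive fold change over all libraries, 3 exceeded 0.58 and 1 was under -0.58. Slc41a1, a magnesium transporter counted with the inorganic ions, had 2.53 and 2.69 in FLAG against 1.99 and 2.22 in WT after crosslinking and 3.37, 3.05 and 3.35 against 2.46, 2.77 and 2.49 in native conditions. Its groups did not overlap, and its log2 fold change across the 10 libraries was 0.61 ± 0.14 (limma adjusted p = 0.0845).

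The other genes of zinc and metal handling were read from a separate list. Of 12 listed genes 10 were in the matrix. Their median log2 fold change over all libraries was 0.58, with 5 genes above 0.58 and 1 below -0.58, and none was called. The metallothionein genes, whose proteins buffer zinc in the cytosol, had 0.92 (Mt1), 0.95 (Mt2) and 0.69 (Mt3). The ferritin genes, which encode the iron store, had 1.02 (Fth1) and 0.86 (Ftl1). Trf, which encodes the iron carrier transferrin, had -1.52.

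**Figure D2:**
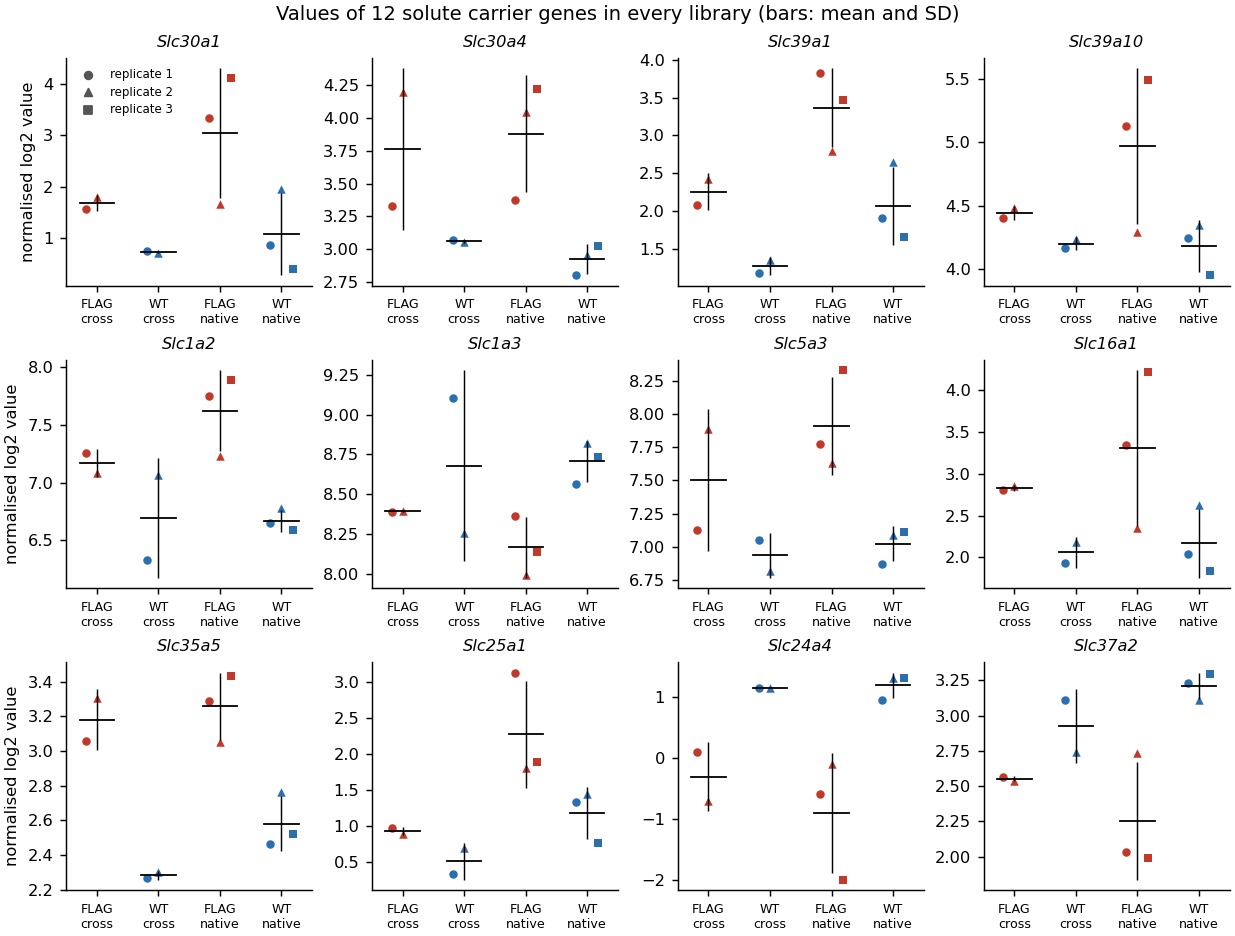
Each panel shows the normalised log2 value (y axis) of 1 gene in all 10 libraries, with FLAG libraries in red, WT libraries in blue, replicate numbers as point shapes, and bars for the mean and SD of each group along the x axis. Slc30a4, Slc39a1, Slc5a3 and Slc35a5 have every FLAG point above every WT point of the same protocol, Slc24a4 and Slc37a2 every FLAG point below, and in Slc30a1 and Slc16a1 native FLAG replicate 2 (triangle) falls inside the WT range.

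The glutamate transporter genes Slc1a2 and Slc1a3 had fold changes of opposite sign. Slc1a2 encodes GLT-1 and lies at chr2:102658659-102790784. Its values were 7.26 and 7.08 in FLAG against 6.33 and 7.06 in WT after crosslinking, and 7.75, 7.23 and 7.89 against 6.64, 6.78 and 6.59 in native conditions. The groups did not overlap, but WT crosslinked replicate 2 came close to the lower FLAG library. The log2 fold change was 0.48 after crosslinking, 0.96 in native conditions and 0.76 ± 0.18 over all libraries (limma adjusted p = 0.0865). It was called without FLAG native replicate 2 (0.85, limma adjusted p = 0.0352) and without WT crosslinked replicate 2 (0.92, limma adjusted p = 0.0159). Slc1a3 encodes GLAST, a marker of astrocytes and of neural stem cells. Its values were 8.39 and 8.40 in FLAG against 9.10 and 8.26 in WT after crosslinking, and 8.36, 7.99 and 8.14 against 8.56, 8.82 and 8.73 in native conditions. The native groups did not overlap and the crosslinked groups did, because WT crosslinked replicate 2 lay below both FLAG libraries. The log2 fold change over all libraries was -0.44 ± 0.16 (limma adjusted p = 0.168). Without WT crosslinked replicate 2 it was -0.59 (limma adjusted p = 0.0285).

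Among the other amino acid carriers no gene was called over all libraries. Slc7a5, the LAT1 subunit that exchanges large neutral amino acids, had 4.58 and 4.82 in FLAG against 4.23 and 4.49 in WT after crosslinking, and 4.90, 4.96 and 4.90 against 4.44, 4.89 and 4.64 in native conditions. The groups did not overlap, yet they nearly touched in native conditions, and the log2 fold change over all libraries was 0.29 ± 0.12 (limma adjusted p = 0.202). Slc3a2, which encodes the heavy chain of this exchanger, had 0.39, Slc7a11, the cystine importer that feeds glutathione synthesis, 0.16, and Slc7a1, an arginine and lysine importer, 0.29. None of these was called. Slc38a2, a sodium-coupled importer of small neutral amino acids, had 5.11 and 5.01 in FLAG against 4.62 and 4.91 in WT after crosslinking, and 6.09, 4.40 and 5.97 against 4.23, 5.15 and 4.07 in native conditions. Its native FLAG replicates 1 and 3 were high and replicate 2 was within the WT range, and the log2 fold change over all libraries was 0.72 ± 0.34 (limma adjusted p = 0.247). Its paralogue Slc38a1 had 0.37 ± 0.34.

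Carriers of neurotransmitters and osmolytes included Slc6a11, which takes up GABA and had a log2 fold change over all libraries of -0.22. Slc6a6, the taurine importer, had 0.27, and Slc6a9, a glycine importer, had -0.10. The neutral amino acid transporter genes Slc1a4 and Slc1a5 had 0.12 and -0.19, and none of the genes of this paragraph was called. In a list of 15 genes of the response to amino acid shortage, which is known to raise amino acid carriers, 11 were in the matrix, with a median of 0.41, 2 above 0.58 and 0 below -0.58. One of them, Atf4, encodes the transcription factor of this response and had 0.47 (limma adjusted p = 0.238).

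Among sugar and lactate carriers, Slc5a3 and Slc16a1 had positive fold changes in both protocols. Slc5a3 encodes SMIT1, which imports the osmolyte myo-inositol, and lies at chr16:92058322-92087473. Its values were 7.13 and 7.89 in FLAG against 7.05 and 6.82 in WT after crosslinking, and 7.77, 7.64 and 8.33 against 6.87, 7.09 and 7.11 in native conditions. The groups did not overlap, and the log2 fold change over all libraries was 0.76 ± 0.18 (limma adjusted p = 0.0865). Its 3′UTR of 8260 nt held 25 matches of the recognition element. Slc16a1 encodes MCT1, the lactate and pyruvate transporter. Its values were 2.80 and 2.86 in FLAG against 1.93 and 2.19 in WT after crosslinking, and 3.34, 2.36 and 4.21 against 2.04, 2.63 and 1.84 in native conditions. The crosslinked groups did not overlap and the native groups did, through FLAG replicate 2. Over all libraries the log2 fold change was 0.99 ± 0.31 (limma adjusted p = 0.137), and without that library it was 1.23 (limma adjusted p = 0.0345).

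The log2 fold changes of Slc37a2, Slc5a10, Slc2a1 and Slc16a9 lay on both sides of 0, and none of these genes was called. Slc37a2, a sugar phosphate exchanger of the endoplasmic reticulum, had 2.56 and 2.54 in FLAG against 3.11 and 2.74 in WT after crosslinking, and 2.03, 2.73 and 1.99 against 3.23, 3.11 and 3.29 in native conditions. All 5 FLAG libraries lay below all 5 WT libraries, and the log2 fold change was -0.72 ± 0.19 (limma adjusted p = 0.105). Slc5a10, of the sodium/glucose cotransporter family, had -0.54 ± 0.24 with groups that did not overlap, and Slc4a1ap, which is no carrier and is counted with the inorganic ions, -0.22 ± 0.12. The main glucose transporter of the blood-brain barrier and of astrocytes, Slc2a1, had -0.25 ± 0.23. Slc16a9, singled out after its values were seen, had 1.10 (limma adjusted p = 0.201). Of 16 glycolysis genes, all in the matrix, the median was 0.38, with 3 above 0.58 and 0 below -0.58, and none was called.

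The only solute carrier gene called over all libraries, Slc35a5, belongs to the nucleotide sugar transporter family of the secretory pathway, whose members bring activated sugars into the Golgi for glycosylation. It lies at chr16:45139573-45158706. Its values were 3.06 and 3.31 in FLAG against 2.27 and 2.30 in WT after crosslinking. In native conditions they were 3.29, 3.05 and 3.43 in FLAG and 2.46, 2.76 and 2.52 in WT. Its lowest FLAG value exceeded its highest WT value, also across the protocols. Its log2 fold change was 0.90 after crosslinking and 0.68 in native conditions. Over all libraries it was 0.76 ± 0.14 (95% interval 0.46 to 1.06), with a limma adjusted p of 0.0455. The adjusted p ranged from 7.4e-05 to 0.153 over 20 alternatives, and the call was kept in 8 of them. This fit counts 5 libraries of each genotype, although same-numbered crosslinked and native libraries of a genotype deviated together. With libraries of one genotype and number as a random block the limma adjusted p was 0.12, and Slc35a5 was not called. It was also lost when any one of FLAG crosslinked replicates 1 or 2, FLAG native replicates 1 or 3, WT crosslinked replicate 1 or WT native replicates 1, 2 or 3 was left out. The 3′UTR of 2574 nt held 6 matches, of which the nearest to the stop codon lies 96 nt behind it.

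Of the remaining small classes, Slc46a1, the proton-coupled folate transporter, had the highest value among the vitamin carriers. Its values were -0.09 and 0.27 in FLAG against -0.19 and -0.19 in WT after crosslinking, and 1.25, 0.70 and 1.13 against 0.59, -1.37 and 0.01 in native conditions. The groups did not overlap, but the WT native libraries spread over almost 2 log2 units, and the log2 fold change over all libraries was 0.88 ± 0.39 (limma adjusted p = 0.228). Slc33a1, which brings acetyl-CoA into the endoplasmic reticulum and was singled out after its values were seen, had 0.30 (limma adjusted p = 0.149).

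Inorganic ion carriers held the lowest fold change of all 205 genes in the main fit, that of Slc24a4. It lay close to that of Slc25a21 (-1.82), and with array weights the order was reversed (-1.72 for Slc24a4 and -3.54 for Slc25a21). Slc24a4 encodes NCKX4, which exchanges sodium for calcium and potassium, and lies at chr12:102128733-102267091. Its values were 0.10 and -0.71 in FLAG against 1.15 and 1.15 in WT after crosslinking, and -0.59, -0.09 and -1.99 against 0.95, 1.32 and 1.32 in native conditions. Every FLAG library lay below every WT library. The lowest value, in FLAG native replicate 3, is one of the values tied at the floor of that library, so that the native fold change there has no exact size. The log2 fold change was -1.45 after crosslinking, -2.09 in native conditions and -1.83 ± 0.37 over all libraries (limma adjusted p = 0.0631). With a pseudocount of 1 added on the linear scale it passed the threshold.

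The bicarbonate transporters of the Slc4 family spread in both directions. Slc4a4, the glial sodium bicarbonate cotransporter, had 8.61 and 8.82 in FLAG against 9.57 and 8.43 in WT after crosslinking, and 8.48, 9.22 and 8.73 against 9.86, 9.18 and 9.96 in native conditions. WT crosslinked replicate 2 lay below both FLAG libraries of its protocol and FLAG native replicate 2 within the native WT range, and the log2 fold change over all libraries was -0.63 ± 0.25 (limma adjusted p = 0.201). Slc4a10, singled out after its values were seen, had the highest fold change of the 205 genes. Its values were 0.01 and -0.40 in FLAG against -2.84 and 0.45 in WT after crosslinking, and 0.22, 0.30 and -0.18 against -2.85, -2.50 and -2.08 in native conditions. WT crosslinked replicate 2 was the one WT library in which it was as high as in FLAG. The log2 fold change over all libraries was 1.95 ± 0.61 (limma adjusted p = 0.138), and without that library it was 2.60 (limma adjusted p = 0.0159). Slc12a2, the NKCC1 cotransporter that loads chloride into immature neural cells, stood at -0.02 ± 0.13 (95% interval -0.31 to 0.26). In a list of 15 ion pumps 14 were in the matrix, with a median of 0.17. Of these 3 genes were above 0.58, among them Atp1b2 (1.34) and Atp1b1 (1.12), which encode subunits of the sodium pump, and 1, Atp2b4 (-0.67), a calcium pump gene, was below -0.58. None was called.

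The 41 genes of family 25, most of them mitochondrial carriers, had a median log2 fold change of 0.00 after crosslinking, 0.14 in native conditions and 0.03 over all libraries. Over all libraries 7 were above 0.58 and 4 below -0.58. Slc25a4 and Slc25a5 encode the ADP/ATP translocases ANT1 and ANT2. The values of Slc25a4 were 3.98 and 3.83 in FLAG against 3.14 and 3.36 in WT after crosslinking, and 6.0, 4.59 and 5.74 against 4.58, 4.62 and 4.22 in native conditions. Those of Slc25a5 were 3.83 and 3.56 against 3.14 and 3.09, and 5.92, 4.42 and 5.54 against 4.60, 4.59 and 4.03. In both genes the crosslinked groups did not overlap, and native FLAG replicate 2 lay inside the WT range. The log2 fold changes over all libraries were 0.84 ± 0.24 for Slc25a4 (limma adjusted p = 0.121) and 0.76 ± 0.26 for Slc25a5 (limma adjusted p = 0.155). Of the 75-nt windows of the longest Slc25a5 transcript, 27.9% also occur in annotated transcripts of other genes, here pseudogenes, so its counts are uncertain.

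Slc25a1, the citrate carrier, had 0.97 and 0.89 in FLAG against 0.33 and 0.69 in WT after crosslinking, and 3.13, 1.81 and 1.89 against 1.34, 1.44 and 0.77 in native conditions. Its groups did not overlap, and its log2 fold change across the 10 libraries was 0.83 ± 0.29 (limma adjusted p = 0.169). Slc25a39, which brings glutathione into mitochondria, had 2.92 and 2.61 against 2.44 and 2.40, and 4.88, 3.57 and 4.23 against 3.51, 3.51 and 2.96. Its groups did not overlap but came close in native conditions, and the log2 fold change was 0.68 ± 0.24 (limma adjusted p = 0.17). Slc25a15, the ornithine carrier of the urea cycle, had 2.22 and 2.38 against 1.54 and 1.68, and 3.00, 2.38 and 2.85 against 2.17, 2.09 and 2.06. Its groups did not overlap, and its log2 fold change was 0.66 ± 0.15 (limma adjusted p = 0.0865). Slc25a3, the phosphate carrier, had 0.55 ± 0.36.

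On the lower side were Slc25a29, a carrier of basic amino acids, and Slc25a47, which are neighbours on chromosome 12 on opposite strands, 162 nt apart. Slc25a29 had 2.31 and 2.68 in FLAG against 3.04 and 2.69 in WT after crosslinking, and 1.32, 2.77 and 2.06 against 3.10, 2.89 and 3.07 in native conditions. Slc25a47 had 2.87 and 3.35 against 3.78 and 3.47, and 2.40, 2.97 and 1.99 against 3.34, 3.26 and 3.34. The groups of both genes did not overlap, and the log2 fold changes over all libraries were -0.73 ± 0.26 and -0.72 ± 0.19, with limma adjusted p-values of 0.168 and 0.112. Slc25a21, a carrier of oxodicarboxylates, had the lowest fold change of the family, -1.82 ± 0.81 (limma adjusted p = 0.235). Its values were -2.47 and -2.66 in FLAG against 1.14 and -2.69 in WT after crosslinking, and 1.11, -2.48 and 0.59 against 1.72, 0.71 and 2.29 in native conditions, so WT crosslinked replicate 2 was as low as FLAG. Of 14 genes of mitochondrial transport outside the carrier family the median was 0.07, with 1 above 0.58 and 0 below -0.58.

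The second question was whether the FLAG over WT differences were alike with and without crosslinking. Across the 205 genes the log2 fold changes of the 2 protocols had a Spearman correlation of 0.60 and a Pearson correlation of 0.68, given as a description across genes. The protocols share no library, but same-numbered libraries of a genotype deviated together across them, so the 2 sets of fold changes are not independent. In protein-coding genes the Spearman correlation was 0.62. The sign was the same in both protocols for 134 of 205 solute carrier genes (65.4%), against 72.9% of protein-coding genes. Native fold changes were the wider of the 2 sets, with 35 genes above 0.58 (17.1%) and 26 below -0.58 (12.7%), against 10 (4.88%) and 6 (2.93%) after crosslinking. All genes had the same wider spread, with 16.4% and 15.6% in native conditions and 5.24% and 4.35% after crosslinking. In the test of the difference between the protocols itself, limma called no gene of the matrix in either direction (0.0% and 0.0%). At an unadjusted p under 0.05 with the fold, 0 solute carrier genes had a higher or a lower fold change in native conditions, against 0.233% and 0.182% of all genes. For Slc30a1 the difference was 1.01 with a 95% interval of -1.06 to 3.08, and for Slc35a5 it was -0.22 (-0.87 to 0.43), and neither interval excluded 0.

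**Figure D3:**
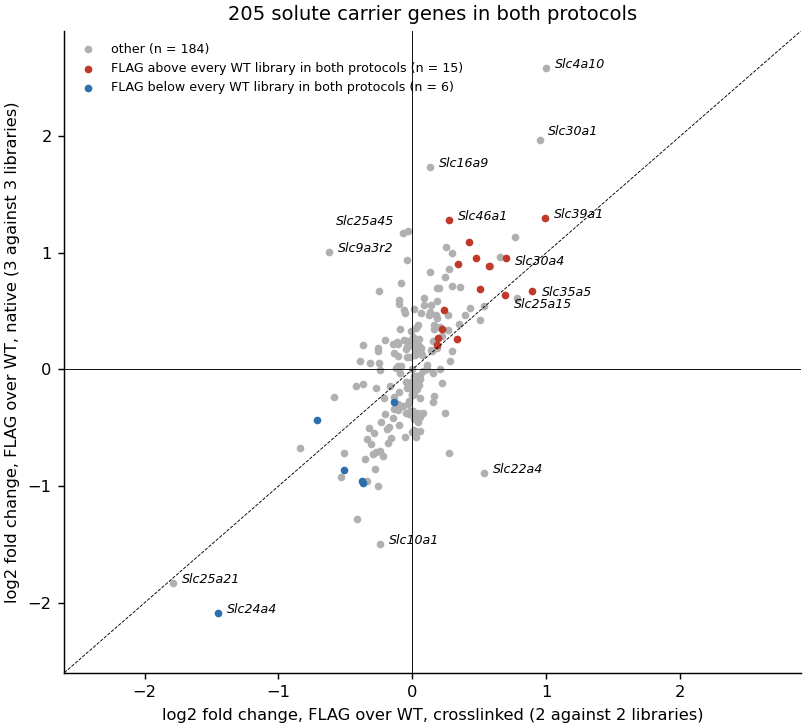
Each point is 1 solute carrier gene, with its log2 fold change of FLAG over WT after crosslinking (2 against 2 libraries) on the x axis and in native conditions (3 against 3 libraries) on the y axis; the dashed line marks equal values. The 15 red genes and 6 blue genes are those whose FLAG libraries lay above or below all WT libraries in both protocols, and the points spread more widely along the native axis, from -2.09 to 2.59, than along the crosslinked axis, from -1.79 to 1.00.

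The third comparison set the crosslinked libraries against the native ones, over both genotypes. Here 3 solute carrier genes were called higher after crosslinking (1.46%), against 1.17% of all genes (186), and 4 were called lower (1.95%), against 2.94% (467). Of these 7 genes 5 were mitochondrial carriers. In this comparison what was captured and how well RNA was recovered cannot be told apart. Same-numbered crosslinked and native libraries of one genotype deviated together, and with libraries of one genotype and number as a random block all 7 genes stayed called (4 higher and 7 lower in all, against 2.3% and 4.86% of all genes). With the number alone as a block, which also joins FLAG and WT libraries that did not deviate together, 1 of the 3 higher genes stayed called (Slc25a36, 0.67, limma adjusted p = 0.0292), against 0.226% of all genes, and 1 of the 4 lower genes (Slc25a5, -1.48, limma adjusted p = 0.0408), against 1.69%. All crosslinked libraries lay above all native ones for 10 solute carrier genes (4.88%, background 5.56%) and below them for 6 (2.93%, background 4.34%).

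The called higher genes were Slc25a36, Slc16a6 and Slc25a27. Slc25a36, a carrier of pyrimidine nucleotides, had 5.77 and 5.79 in FLAG and 5.81 and 5.75 in WT after crosslinking, and in native conditions 4.97, 5.02 and 4.76 in FLAG and 5.08, 5.36 and 4.91 in WT. The crosslinked libraries lay close together and above every native library. The log2 difference was 0.76 ± 0.12 (limma adjusted p = 0.00466), and the call was kept in 21 of 21 alternatives. Slc25a27, the uncoupling protein UCP4 of neural tissue, had 4.05, 4.04, 3.85 and 4.22 after crosslinking, and 3.02, 3.67, 3.17, 3.31, 3.53 and 3.65 in native conditions, in each case FLAG first. Its log2 difference was 0.65 ± 0.16 (limma adjusted p = 0.0437), and the call was kept in 7 of 21 alternatives. Slc16a6, a monocarboxylate transporter, had 2.04 and 1.60 in FLAG and 1.77 and 2.21 in WT after crosslinking, and 0.56, 0.92 and 1.13 in FLAG and 1.10, 0.73 and 1.20 in WT in native conditions. Its log2 difference was 0.97 ± 0.20 (limma adjusted p = 0.0241), and the call was kept in 13 of 20. Of its exon length 23.5% overlaps another gene.

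The called lower genes were the ADP/ATP translocase genes, Slc25a39 and Slc9a3r1. Slc25a4 had a log2 difference of -1.38 ± 0.24 (limma adjusted p = 0.0111) and Slc25a5 one of -1.44 ± 0.26 (limma adjusted p = 0.0126). Their calls were kept in 19 and 20 of 21 alternatives. The calls of the other lower genes were kept less often, in 13 of 21 for Slc25a39 and in 7 of 20 for Slc9a3r1. Slc25a39 had -1.18 ± 0.25 (limma adjusted p = 0.0235). Slc9a3r1, which is no carrier, had 1.44 and 1.78 in FLAG and 1.91 and 1.09 in WT after crosslinking, against 2.12 to 2.50 in the 6 native libraries, and a difference of -0.79 ± 0.19 (limma adjusted p = 0.0415). The 3 carriers Slc25a4, Slc25a5 and Slc25a39 have 3′UTRs of 666, 263 and 435 nt, in which the motif as printed above was not found, whereas its other form, described below, had 1 match in that of Slc25a4. Among all 41 genes of family 25 the median log2 difference was 0.14, with 4 genes above 0.58 and 6 below -0.58, so the family did not move one way. Slc25a28, a mitochondrial iron importer, had 0.77 (limma adjusted p = 0.0562), and Slc25a1 had -1.01 (limma adjusted p = 0.0863). Slc25a21 had the lowest difference of the 205 genes, -2.33, with a large error (± 0.83, limma adjusted p = 0.143). Outside the family, Slc12a7, a potassium chloride cotransporter, had 0.78 and Slc12a8 0.68, and neither was called (limma adjusted p = 0.297 and 0.506).

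**Figure D4:**
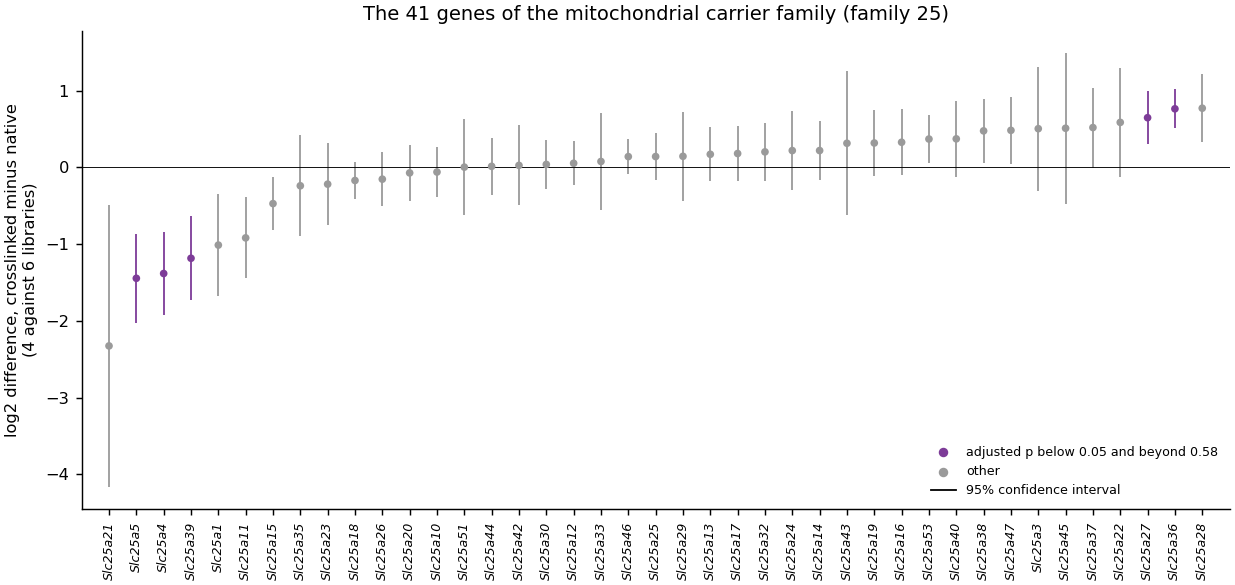
The 41 genes of family 25, most of them mitochondrial carriers, are ordered along the x axis by their log2 difference between the crosslinked and the native libraries (y axis), with points for the estimate and lines for the 95% interval. The 5 called genes are in purple, with Slc25a5 (-1.44), Slc25a4 (-1.38) and Slc25a39 (-1.18) low after crosslinking and Slc25a27 (0.65) and Slc25a36 (0.76) high.

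Of the 10 metal handling genes in the matrix 5 were called lower after crosslinking, and of the 16 glycolysis genes 4. On both lists 0 were called higher. Over all genes 2.94% were called lower and 1.17% higher. These 2 lists are described together because they held the calls, so their joint count of 9 of 26 genes is no separate result. With the number alone as a block 7 of the 26 were called lower, and with the random block of genotype and number 10. On the other lists, which are given with the classes above, 0 genes were called in either direction, except that Mpc1, a subunit gene of the mitochondrial pyruvate carrier, was called higher with the random block. Of the metal handling genes, Fth1 had a log2 difference between the protocols of -2.08 and Ftl1 one of -1.94, and the metallothionein genes Mt1, Mt2 and Mt3 had -1.57, -1.23 and -1.63. Of the glycolysis genes, Tpi1 had -1.48, Aldoa -1.31, Ldha -1.24 and Eno1 -1.02. All of these 9 genes passed the threshold in limma. The other genes of these lists were not called and lay on both sides of 0. Below it were among others Aldoc (-1.285), Pgk1 (-0.716), Pgam1 (-0.623) and Trf (-0.599), and above it Gapdh (0.65), Pfkl (0.33) and Atp7b (0.26). Positive differences were found in 4 of the 16 glycolysis and 2 of the 10 metal handling genes. No list was tested against the other genes.

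The fold changes were then set beside features of the genes that the choice of members had not used. The share of a gene that is exon (merged exon length over the span of the gene) had a median of 17% and a Spearman correlation with the native log2 fold change of 0.50 across the 205 genes, and of 0.44 across protein-coding genes. After crosslinking the values were 0.23 and 0.20. The span of the gene itself had a correlation of -0.42 in native conditions. These are descriptions across genes, which share libraries and are not independent. In native conditions all FLAG libraries lay above all WT libraries for 29 solute carrier genes (14.1%), against 8.62% of all genes, and below them for 22 (10.7%), against 10.8%.

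Ordered by exonic share and cut into 3 parts, the lowest (69 genes, 0.83% to 11.3% exon) had a native median of -0.25, with 4 genes above 0.58 and 15 below -0.58. The middle (68 genes) had 0.12, with 9 above and 8 below. The highest (68 genes, from 24%) had 0.36, with 22 above and 3 below. The 15 genes higher in both protocols had exonic shares from 9.94% to 71.9%, and the 6 lower ones from 3.27% to 26%. Slc24a4, Slc4a4 and Slc39a12 are long genes of little exon, and Slc25a4, Slc25a5 and Slc25a1 short genes of much exon. Whether reads in introns were counted is not given in the sources used here, and the part of the exonic share in the fold changes was not tested.

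**Figure D5:**
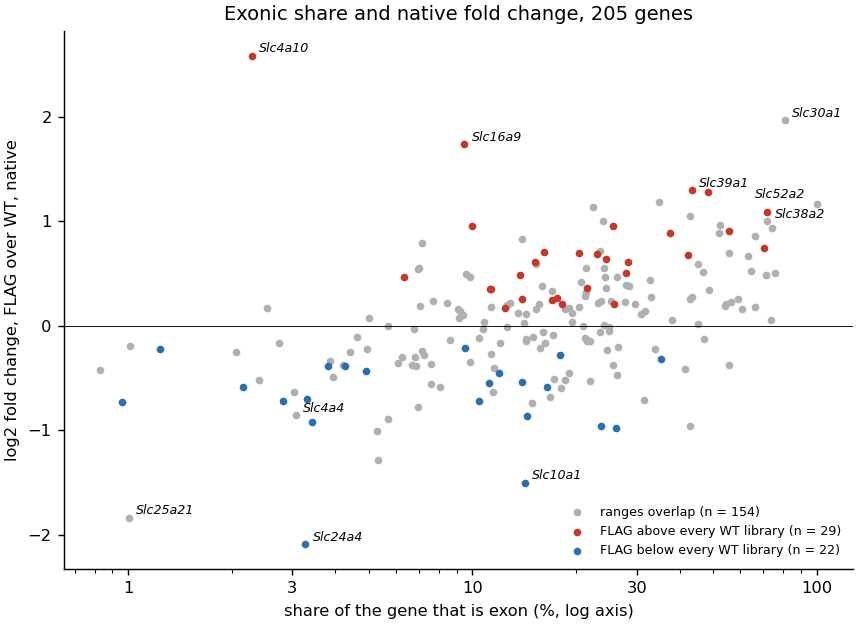
Each point is 1 of the 205 solute carrier genes, with the share of the gene that is exon on the x axis (percent, log axis) and the native log2 fold change of FLAG over WT on the y axis. Red points are the 29 genes with all native FLAG libraries above all native WT libraries and blue points the 22 genes with all below, 14.1% and 10.7% of the 205 genes against 8.62% and 10.8% of all genes; the median exonic share is 20.4% in the red and 9.97% in the blue genes.

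Beside the fold changes the recognition element gave the following values. Its matches per kb of 3′UTR had a Spearman correlation of -0.05 with the native and of 0.14 with the crosslinked log2 fold change across the 204 genes with a 3′UTR. Of the 15 genes higher in both protocols 13 held a match, with 2.82 per kb over their 3′UTRs. Of the 6 lower genes 5 held one, with 2.10 per kb, and the remaining genes had 2.55 per kb. The shorter pentamer ATTTA, searched on the same strand as the core of AU-rich elements, was in 72.5% of the solute carrier and 72.1% of the protein-coding 3′UTRs. Per kb it had 1.68 and 1.85 matches. With the last part of the motif written as TAAT, TCAT or TTAT, 82.8% of the solute carrier and 76.8% of the protein-coding 3′UTRs held a match. Per kb this form had 2.48 matches in the longer solute carrier 3′UTRs and 2.61 in the protein-coding ones.

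Levels between genes can be compared only per length. Per kb of exon and on the log2 scale, the highest mean levels were those of Slc9a7, Slc4a4, Slc1a3, Slc22a23 and Slc6a11. Slc9a7 encodes a sodium/proton exchanger of the Golgi and Slc22a23 an orphan member of the organic ion family. Per kb of gene span the order was led by Slc25a5, Slc5a3, Slc25a3 and Slc25a4, so which carriers led depended on the length used. The unscaled mean level itself was higher in genes of longer span (Spearman 0.39 across the 205 genes and 0.60 across protein-coding genes). None of the 5 genes leading per kb of exon was called between FLAG and WT, and their log2 fold changes over all libraries were -0.12 for Slc9a7, -0.63 for Slc4a4, -0.44 for Slc1a3, -0.26 for Slc22a23 and -0.22 for Slc6a11.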

How the data were processed

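RNA from anti-FLAG immunoprecipitates was sequenced in 10 libraries of 4 groups, taken from the labels. The authors trimmed reads with Cutadapt and Trimmomatic, mapped them to GRCm38 with HISAT2 and counted them per gene with featureCounts; the submitters' notes also name limma, and the methods name DESeq2 for normalization. The authors deposited 1 matrix of normalised log2 values for 15899 genes, with nearly identical distributions, so they are not counts, depth per library is unknown, and no count model was used. The annotation counted against is not the one used here. Whether counting used the strand or introns is not given in the sources used here. Unmapped value columns numbered 0.

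The log2 values were tested as deposited with limma 3.58.1 (R 4.3.3; lmFit, eBayes with trend), within each protocol, over all libraries with protocol as covariate, between protocols, and for the difference between protocols in 1 fit of 4 groups. p-values were adjusted by Benjamini-Hochberg over all genes, and genes under 0.05 and beyond 0.58 were called. Steps were tested on simulated data. Annotation was GENCODE M21, in which 15864 genes were found and 186 of the 205 solute carrier genes had the start and end of the matrix. Sharing was counted in 75-nt windows. Python 3.11.15 with pandas 2.3.3, numpy 2.4.6, scipy 1.17.1 and matplotlib 3.10.9 was used.

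The members and lists were chosen with earlier results of these data known. Genes were named if called, if among the 10 largest changes in each direction with FLAG beyond all WT libraries in both protocols, if on the study's list (Slc30a1, Slc30a4), if well known carriers of neural stem cells and astrocytes, if among the 5 highest per kb, or if among the 5 largest protocol differences in each direction; others are said to be chosen after their values were seen, including those listed only by name. Alternatives were pseudocounts of 1 and 8, a mean of at least 10, quantile normalization, centring on coding genes, array weights, robust moderation, the replicate number as a block, 1 fit of 4 groups, correction for transcript length and GC content (20 bins), each library left out, and for the motif its other form and merged 3′UTRs. Across the protocols, same-numbered libraries of a genotype deviated together (correlations 0.136 to 0.402). The 2 crosslinked libraries of a genotype deviate as mirror images, so these pairs are not separate observations. WT crosslinked replicate 1 and WT native replicate 3, of different number, had 0.243. The methods say that both kinds of immunoprecipitation were run side by side, so the comparisons over all libraries are also given with a block. A crossed pairing and a random block of the libraries of one genotype and number across the protocols (limma's duplicateCorrelation, consensus correlation 0.327) were chosen after seeing the data. Some genes are not reported here by name.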

Additional observations from a re-analysis of the deposited data

How the results depend on the processing

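No called value changed sign. Medians near 0 and uncalled values did: that of Slc1a3 after crosslinking ran from -0.71 to 0.14 and that of Slc4a4 from -0.85 to 0.29. In the crosslinked comparison and in the difference between protocols 0 solute carrier genes were called under each alternative run. In native conditions (0 higher and 0 lower) array weights gave 24 and 20 calls (10.4% and 12.1% of all genes), and leaving out 1 library gave 0 to 18 and 0 to 21, the highest without FLAG native replicate 2. Over all libraries, 1 gene was called higher, against 0 with a pseudocount of 8, with a mean of at least 10 (which leaves 92 of the 205 genes), with the replicate block, with the random replicate block and in 1 fit of 4 groups, 17 with array weights (6.95% of all genes) and 0 to 10 with 1 library left out. On the lower side (0) a pseudocount of 1 gave 1 (Slc24a4), array weights 10 (6.06%) and leaving out 1 library 0 to 3. Between protocols 3 genes were higher, against 1 with a pseudocount of 8, with the mean filter or with the replicate block, 16 with array weights (6.5% of all genes) and 1 to 4 with 1 library left out. The 4 lower genes became 2 with a pseudocount of 8, 7 with array weights (6.25%) or the random replicate block (4.86%), 1 with the replicate block and 0 to 8 with 1 library left out. Array weights ran from 0.124 (FLAG native replicate 1) and 0.159 (FLAG native replicate 3) to 10.2 (FLAG crosslinked replicate 2). The crosslinked median (0.01) was 0.0265 with the mean filter, -0.0093 after centring and -0.0182 to 0.0314 with 1 library left out. The native median (0.11) was 0.0273 with a pseudocount of 8, 0.0405 with the mean filter, 0.157 with array weights and 0.0103 to 0.14 with 1 library left out. The median over all libraries (0.04) ranged from -0.01 to 0.07 with 1 library left out. The causes of these shifts were not tested. Of the other values recomputed, 3668 kept direction and side of the threshold, 88 newly passed it and 57 no longer did.

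Replicate numbers did not pair the libraries of FLAG with those of WT. Same-numbered native libraries deviated with correlations of -0.16, -0.48 and -0.19, and the crosslinked ones with -0.28, so calls lost under the replicate block in the FLAG against WT comparisons are not read as a weaker effect. In the crossed pairing of the crosslinked libraries 0 genes were called.

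Limits are few libraries, unknown depth and 1 library on each side that sits near the other genotype. No direction is established here for uncalled genes. This holds also where their 95% interval, which is not corrected for the number of genes, excludes 0.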
